A study of Mus musculus with 96 samples.

Results

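The genes described here are 5 that are widely used as markers of adult epithelial stem cells: Prom1 (assay cd133), Aldh1a1 (assay aldh1), Abcg2, Hopx and Lrig1. They were picked by name from a panel of 96 quantitative PCR assays, and all 5 were found in it. The panel was run on 96 single cells from 1 group. These were uterine cells taken from mice on postnatal day 7, freed with collagenase and sorted by flow cytometry for CD326 (the epithelial adhesion molecule EpCAM). The labels give no strain, genotype, treatment, control or number of animals for these cells. Cells of 1 group are not replicates, so shares of cells are given with exact (Clopper-Pearson) 95% intervals, which cover counting error only, and no test between groups or p-value is given.

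Stem cell markers of this kind were named in other adult tissues, where each labels cells that can renew an epithelium. Prom1 encodes CD133, a membrane glycoprotein of cell protrusions, and Aldh1a1 an aldehyde dehydrogenase that makes retinoic acid and is read out by enzyme assays of stem cells. Abcg2 encodes an efflux transporter that pumps out the dyes by which "side population" cells are sorted. Hopx encodes an atypical homeodomain protein that does not bind DNA, and Lrig1 a transmembrane inhibitor of epidermal growth factor receptor signalling. Both have been used to mark stem cells in the mouse intestine and skin. At this age the mouse uterine epithelium is immature and its glands are only starting to form.

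Each value is a cycle threshold (Ct), the PCR cycle at which product was detected, so a lower Ct means more template. A gene counted as detected in a cell at a Ct below 28. Of 9216 values, 4851 (52.6%) were detected. Depth, here the number of detected assays among the 91 that are not 1 of the 5 markers, had a median of 52 per cell and a range of 9 to 75. Epithelial genes were detected in most cells: Krt18, a keratin of simple epithelium, was found in 91 cells, Krt19 in 93, Cdh1 (E-cadherin) in 85 and Epcam itself in 74. In 8 cells the reference gene Gapdh came at a Ct above 18 or was not detected. Cell 67, which is 1 of these, has no value in the first 71 assays of the table. Its Prom1 (Ct 21.6) lies in the later 25 assays, as does Hopx, which was not detected there, so its lack of Aldh1a1, Abcg2 and Lrig1 says little.

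Prom1 and Hopx were each found in more than 1 cell in 3, Abcg2 and Lrig1 in about 1 in 4, and Aldh1a1 in fewer. Prom1 was detected in 38 of 96 cells (39.6%, interval 29.7 to 50.1%). Hopx followed with 36 cells (37.5%, interval 27.8 to 48.0%). Abcg2 was detected in 26 cells (27.1%, interval 18.5 to 37.1%) and Lrig1 in 24 (25.0%, interval 16.7 to 34.9%). Aldh1a1 was detected in 14 cells (14.6%, interval 8.21 to 23.3%). Neighbours in this order have overlapping intervals, while those of Aldh1a1 and Prom1 do not overlap. None of the 5 reached 50% of cells, whereas 55.2% of all assays did.

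In the cells that carried them, most markers were well clear of the detection limit. Prom1 had a lowest Ct of 14.0, a median of 17.9 and a highest of 25.0 over its 38 cells, and the other 58 cells gave no Ct at all. Hopx ran from 15.3 through a median of 20.3 to 23.8, with no value in the last 4 cycles before the limit. For these genes, then, cells either had a clear value or none.

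Aldh1a1 spanned 13.4 to 24.5, with a median of 18.7, and 2 further cells had a Ct above 28. It had the widest spread of the 5 in cells that detected it, with an SD of 3.22 cycles against 2.19 to 2.73 in the other 4. Abcg2 ran from 16.4 to 27.0 with a median of 19.7. Lrig1 came latest, at 18.1 to 27.7 with a median of 21.8, and 8 of its 24 values (33.3%) were at a Ct of 24 or above. Over the whole panel 7.03% of detected values were that late. With a limit of 24 the share of Lrig1 was 16.7%, so its number of cells depends on the limit more than that of the other markers. Ct values also depend on each assay's efficiency, so levels of different markers compare in rough order only.

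**Figure D1:**
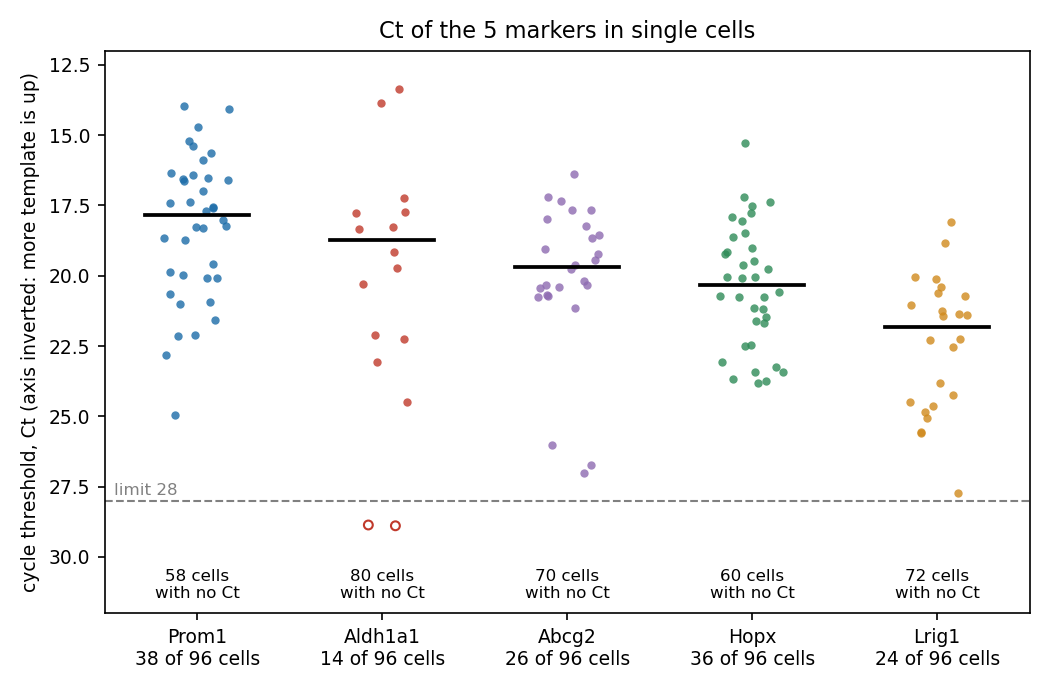
Ct of each marker in single cells, with the axis inverted so that more template is higher. Each filled point is a cell with a Ct below 28, open points are recorded values above the limit, black lines are medians over detecting cells and the text gives the number of cells with no Ct. Prom1 (38 cells) and Hopx (36 cells) end at a Ct of 25.0 and 23.8, while Lrig1 reaches down to 27.7.

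The Ct of the markers followed that of Gapdh with a Spearman rho of 0.23 to 0.55, given without intervals. Gapdh is a glycolytic gene that stands here for the amount of template in a cell. Differences between markers in this rho were not tested. For Prom1 the Spearman rho was 0.55 over 37 cells (Pearson r = 0.54, and 0.57 without the 2 cells farthest from the median Gapdh Ct). Hopx had a rho of 0.52 over 36 cells (r = 0.49, and 0.44 without those 2 cells), and Lrig1 a rho of 0.52 over 24 cells (r = 0.61 and 0.44). Aldh1a1 had a rho of 0.32 over 14 cells (r = 0.21 and 0.24) and Abcg2 a rho of 0.23 over 26 cells (r = 0.06 and 0.30). The points of each correlation are cells of 1 group, and both Ct values of a point depend on that cell's amount of template.

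Subtracting the Gapdh Ct of the same cell accordingly narrowed the spread of some markers and widened that of others. The SD became 2.21 cycles in place of 2.56 for Prom1, 1.94 in place of 2.19 for Hopx and 1.94 in place of 2.41 for Lrig1. For Aldh1a1 it became 3.55 in place of 3.22, and for Abcg2 3.47 in place of 2.73. Relative to Gapdh, Prom1 came a median of 5.33 cycles later, with a range of 2.32 to 10.7. Abcg2 ranged from 2.29 cycles earlier than Gapdh (-2.29) to 13.6 later, with a median of 6.65, and Aldh1a1 from 1.41 to 13.8, with a median of 6.80. The lowest value for Abcg2 was in cell 73 and that for Aldh1a1 in cell 2. Both are low-Gapdh cells, with a Gapdh Ct of 20.5 and 18.3. The spread after subtraction was not computed without such cells, so their part in the wider SD of these 2 markers is not known. Hopx lay a median of 7.34 cycles after Gapdh and Lrig1 a median of 10.4.

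Depth moved with the shares of Prom1, Hopx and Lrig1. Cells were placed in 3 classes by the number of other assays detected: 34 cells with 9 to 48, 32 with 49 to 56 and 30 with 57 to 75. Prom1 was detected in 8, 10 and 20 cells of these classes (23.5%, 31.2% and 66.7%). Hopx was found in 8, 12 and 16 (23.5%, 37.5% and 53.3%), and Lrig1 in 4, 9 and 11 (11.8%, 28.1% and 36.7%). All 3 had their lowest share in the shallowest cells and their highest in the deepest.

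Abcg2 did not follow that order. It was detected in 9, 12 and 5 cells (26.5%, 37.5% and 16.7%), and the median depth of cells with and without it was 52 in both. Aldh1a1 was found in 2, 7 and 5 cells (5.88%, 21.9% and 16.7%). Split by Gapdh, Abcg2 was in 12 of the 48 cells with the lowest Gapdh Ct and 14 of the other 48, whereas Prom1 was in 25 and 13, Hopx in 22 and 14, Lrig1 in 17 and 7 and Aldh1a1 in 10 and 4. Of the 8 low-Gapdh cells, 2 carried Prom1, 2 Abcg2 and 1 Aldh1a1, and none carried Hopx or Lrig1.

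**Figure D2:**
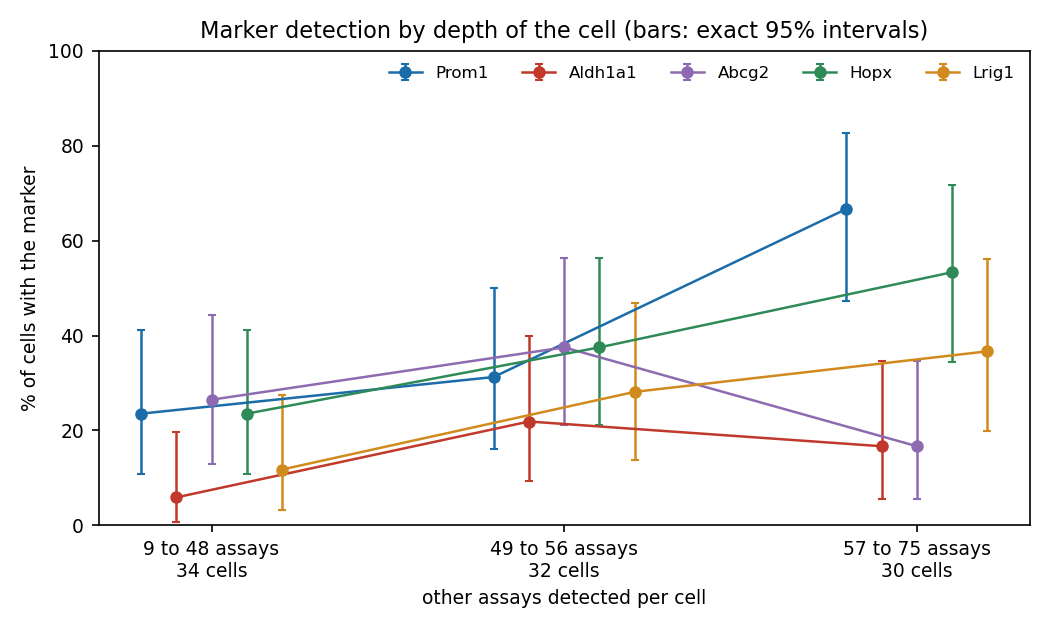
Share of cells with each marker (vertical axis, percent) in the 3 depth classes (horizontal axis, with the range of other assays detected and the number of cells); bars are exact 95% intervals. Prom1 goes up over the classes to 66.7% in the deepest cells, while Abcg2 is at 16.7% there.

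Most cells carried at least 1 marker and few carried more than 3. At least 1 of the 5 was detected in 70 cells (72.9%, interval 62.9 to 81.5%), at least 2 in 44 (45.8%, interval 35.6 to 56.3%) and at least 3 in 20 (20.8%, interval 13.2 to 30.3%). By number, 26 cells had none, 26 had 1, 24 had 2, 16 had 3 and 4 had 4. All 5 together were found in 0 of 96 cells, for which the exact interval reaches 3.77% (3.12% by the limit of 3 counts). The median depth was 45 assays in cells with none, 52 with 1, 55.5 with 2, 53 with 3 and 56.5 with 4. Across cells the number of markers followed depth with a rho of 0.36 (r = 0.39, and 0.38 without the 2 cells farthest from the median depth).

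The markers met in many combinations: 25 of the 32 possible patterns occurred, 8 of them in a single cell. The most frequent after none was Prom1 with Hopx and no other marker, in 10 cells. Abcg2 alone and Hopx alone followed with 8 cells each, then Prom1 alone with 5, and Lrig1 alone, Prom1 with Hopx and Lrig1, and Prom1 with Aldh1a1 and Abcg2 with 4 each. Abcg2 was the marker most often found alone, in 8 of its 26 cells (30.8%, interval 14.3 to 51.8%). Hopx was alone in 8 of 36 (22.2%), Lrig1 in 4 of 24 (16.7%), Prom1 in 5 of 38 (13.2%) and Aldh1a1 in 1 of 14 (7.14%, interval 0.181 to 33.9%). These intervals overlap.

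**Figure D3:**
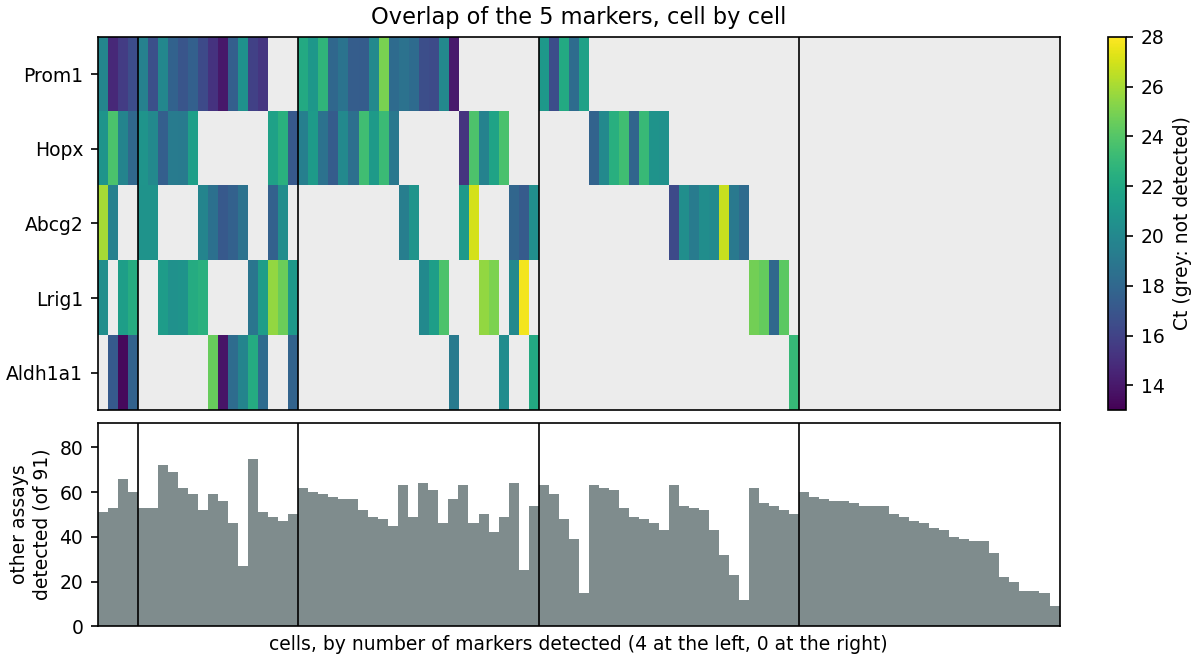
Upper panel: Ct of the 5 markers in every cell, 1 column per cell, grey where not detected. Lower panel: number of the other 91 assays detected in the same cell. Vertical lines separate cells with 4, 3, 2, 1 and no markers, which number 4, 16, 24, 26 and 26.

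Aldh1a1 cells were the ones in which Prom1 was found most often. Prom1 was detected in 10 of 14 cells with Aldh1a1 (71.4%, interval 41.9 to 91.6%), against 28 of 82 cells without it (34.1%, interval 24.0 to 45.4%). Within the depth classes, from shallow to deep, Prom1 was in 2 of 2, 3 of 7 and 5 of 5 Aldh1a1 cells, against 6 of 32, 7 of 25 and 15 of 25 cells without Aldh1a1. The difference averaged over the classes was 34.8 percentage points. The intervals with and without the rarer marker overlap in all 10 pairs of markers, this one included.

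Prom1 and Hopx shared the largest number of cells, 20. Prom1 was in 20 of 36 Hopx cells (55.6%, interval 38.1 to 72.1%), against 18 of 60 cells without Hopx (30.0%, interval 18.8 to 43.2%), and the depth-averaged difference was 17.6 points in place of 25.6. Counted the other way, the 20 cells were 52.6% of the Prom1 cells. Lrig1 shared 13 of its 24 cells with Prom1 (54.2%), against 25 of 72 cells without Lrig1 (34.7%), and 12 with Hopx (50.0%), against 24 of 72 (33.3%). The differences with Lrig1 were 11.3 and 10.7 points after averaging over depth. With a Ct limit of 24, Prom1 was in 81.2% of the 16 cells that still counted for Lrig1. Without the 10% of cells with the most genes it was in 41.2%, and the raw difference was 7.84 points in place of 19.4. The raw difference of Hopx with Lrig1 was 4.90 points in place of 16.7 in cells with Gapdh, actin and Hprt.

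Hopx stood apart from Abcg2 and Aldh1a1 in direction, by margins within counting error. It was in 8 of 26 Abcg2 cells (30.8%), against 28 of 70 without Abcg2 (40.0%), and in 5 of 14 Aldh1a1 cells (35.7%), against 31 of 82 (37.8%). The second of these turned positive, to 7.50 points, when every recorded Ct counted. Abcg2 was in 6 of 14 Aldh1a1 cells (42.9%), against 20 of 82 (24.4%), and in 6 of 24 Lrig1 cells (25.0%), against 20 of 72 (27.8%). Prom1 was in 11 of 26 Abcg2 cells (42.3%), against 27 of 70 (38.6%), and Lrig1 in 5 of 14 Aldh1a1 cells (35.7%), against 19 of 82 (23.2%).

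**Figure D4:**
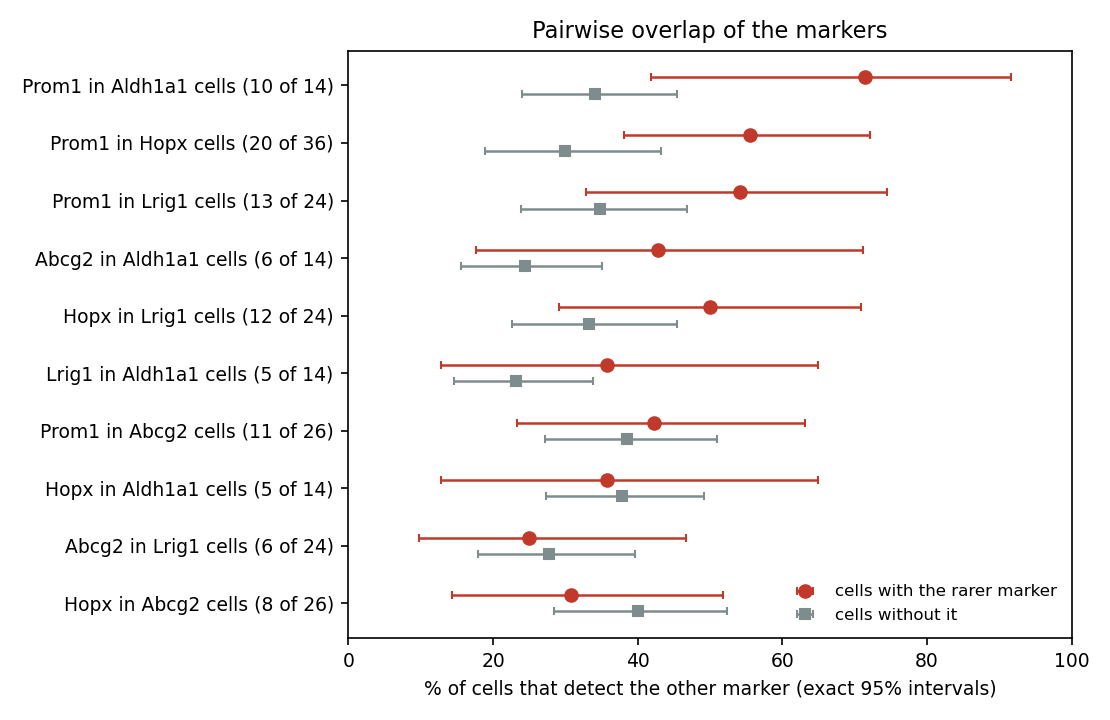
Share of cells (percent) that detect the other marker of each pair, among cells with the rarer marker (red circles) and among cells without it (grey squares), with exact 95% intervals. Prom1 in Aldh1a1 cells is at 71.4%, against 34.1% in cells without Aldh1a1, with overlapping intervals. Hopx with Aldh1a1, Abcg2 with Lrig1 and Hopx with Abcg2 are in reverse order.

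Levels were compared in the 5 pairs of markers with at least 10 shared cells, and r was given again without the 2 cells farthest from the median Ct of the rarer marker. Raw Ct of Hopx and Prom1 had a rho of 0.02 over 20 cells (r = 0.06, and 0.43 without 2 cells), and Lrig1 and Prom1 a rho of 0.02 over 13 (r = 0.27 and -0.31). Abcg2 and Prom1 had a rho of 0.43 over 11 cells (r = 0.48 and 0.06). In these 3 pairs r rests on those 2 cells. Aldh1a1 and Prom1 had a rho of 0.27 over 10 cells (r = 0.20 and 0.40). Lrig1 and Hopx had a rho of 0.46 over 12 cells (r = 0.57 and 0.63), but 0.05 after Gapdh was subtracted from both (r = 0.22).

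Epithelial genes were found in the cells of all 5 markers, least often with Abcg2. Krt18 was detected in all 38 Prom1 cells, all 14 Aldh1a1 cells, all 36 Hopx cells, all 24 Lrig1 cells and 25 of 26 Abcg2 cells. Epcam was in 14 of 14 Aldh1a1 cells, against 60 of 82 without Aldh1a1 (73.2%), in 35 of 38 Prom1 cells (92.1%), against 39 of 58 (67.2%), and in 33 of 36 Hopx cells (91.7%), against 41 of 60 (68.3%). It was in 21 of 24 Lrig1 cells (87.5%), against 53 of 72 (73.6%), but in 18 of 26 Abcg2 cells (69.2%), against 56 of 70 (80.0%). After averaging over depth, all 6 genes of the epithelial list (Epcam, Cdh1, Krt8, Krt18, Krt19 and Cd24a) had a higher share with Hopx than without it, with a median difference of 11.7 points, and likewise with Lrig1, where the median was 3.12. With Prom1 and with Aldh1a1, 4 of 6 were higher and 2 lower, with medians of 3.68 and 4.96. The 2 lower ones were Krt8 and Krt19, at -1.90 and -1.50 points with Prom1 and -1.76 and -7.15 with Aldh1a1. With Abcg2, 1 of 6 was higher and 5 lower, and the median was -4.95. Over all 90 other assays given here, 47 were higher and 42 lower with Prom1, 42 and 47 with Aldh1a1, 39 and 50 with Abcg2, and 58 and 31 with each of Hopx and Lrig1. The medians over these assays were 0.65 points for Prom1, -0.61 for Aldh1a1, -0.66 for Abcg2, 3.36 for Hopx and 2.27 for Lrig1.

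Prom1 cells often carried Pax2, Wnt7a, Insr and Emx2. The 3 genes with the highest depth-averaged difference were the first 3 of these: Pax2, a paired-box gene of the Müllerian duct, Wnt7a, which encodes a WNT protein secreted by uterine epithelium, and Insr, the insulin receptor. Pax2 was in 29 of 38 Prom1 cells (76.3%, interval 59.8 to 88.6%), against 14 of 58 cells without Prom1 (24.1%, interval 13.9 to 37.2%), a depth-averaged difference of 40.5 points. Wnt7a was in 32 of 38 (84.2%), against 20 of 58 (34.5%), and Insr in 33 of 38 (86.8%), against 23 of 58 (39.7%). Within the depth classes Wnt7a was in 4 of 8, 8 of 10 and 20 of 20 Prom1 cells, against 8 of 26, 7 of 22 and 5 of 10 cells without Prom1. The homeobox gene Emx2 was in 26 of 38 (68.4%), against 14 of 58 (24.1%). Of the 8 tract and gland genes listed, 6 had a higher depth-averaged share with Prom1 and 2 a lower one, with a median of 2.74 points, beside a median of 0.65 over all 90 assays. For the other markers these counts were 3 and 5 with Aldh1a1, 4 and 4 with Abcg2, 4 and 4 with Hopx and 7 and 1 with Lrig1. Most of the 90 assays were higher with Lrig1 too, 58 against 31 lower. Of 70 assays found in 10% to 90% of all cells, 15.7% had a share at least 20 points higher with Prom1 and 2.86% a share at least 20 points lower.

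The 3 lowest for Prom1 were Itga5, an integrin subunit, Tbx3, a T-box transcription factor, and Ptprc, the leukocyte phosphatase CD45. Itga5 was in 16 of 38 Prom1 cells (42.1%), against 29 of 58 (50.0%), Tbx3 in 6 (15.8%), against 16 (27.6%), and Ptprc in 23 (60.5%), against 34 (58.6%). The difference of Ptprc was -19.5 points within depth classes and 1.91 without them, so its direction comes from the averaging over depth. The differences of Itga5 and Tbx3 were -25.1 and -21.3 points within depth classes and -7.89 and -11.8 without them, so their size depends on the averaging.

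Aldh1a1 cells were the richest of the 5 in Lgr5, the R-spondin receptor that marks cycling stem cells of the mouse intestine. Lgr5 was detected in 9 of 14 Aldh1a1 cells (64.3%, interval 35.1 to 87.2%), against 11 of 82 cells without Aldh1a1 (13.4%, interval 6.89 to 22.7%). By depth class it was in 1 of 2, 5 of 7 and 3 of 5 Aldh1a1 cells, against 2 of 32, 2 of 25 and 7 of 25 of the others, an averaged difference of 48.8 points. Under all alternatives run this difference lay between 39.0 and 54.9. Emx2 and Pax2 came next, each in 11 of 14 (78.6%), against 29 and 32 of 82 (35.4% and 39.0%). Of the 70 assays, 20% were at least 20 points higher with Aldh1a1 and 14.3% at least 20 points lower, shares that the small number of Aldh1a1 cells also widens.

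Kit, the stem cell factor receptor, had the lowest difference with Aldh1a1. It was in 8 of 14 Aldh1a1 cells (57.1%, interval 28.9 to 82.3%), against 73 of 82 (89.0%, interval 80.2 to 94.9%), a depth-averaged difference of -33.7 points, which was -18.3 with a Ct limit of 24. Hoxa13, a posterior homeobox gene, was in 2 of 14 (14.3%), against 34 of 82 (41.5%), and Ptprc in 7 of 14 (50.0%), against 50 of 82 (61.0%). The difference of Hoxa13 was -32.7 points, and -18.5 with any recorded Ct, and that of Ptprc -25.6, and -11.0 without depth classes. The 16 listed stem and progenitor genes divided evenly with Aldh1a1, 8 higher and 8 lower, with a median of 0.32 points. Lgr6 (-15.0) and Itgb1 (-7.44) were among the lower ones. Among the higher ones, Msi1, an RNA-binding protein gene, was in 13 of 14 (92.9%), against 45 of 82 (54.9%), and Sox9 in 9 of 14 (64.3%), against 29 of 82 (35.4%). Mki67, a gene of cycling cells, was in 8 of 14 (57.1%), against 21 of 82 (25.6%). Foxa2, a transcription factor of uterine glands, was in 1 of 14.

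Prom1 overlapped Lgr5 as well. Lgr5 was found in 15 of 38 Prom1 cells (39.5%), against 5 of 58 cells without Prom1 (8.62%). Of the 20 Lgr5 cells, 15 had Prom1, 9 had Aldh1a1, 7 had both and 3 had neither. In the 7 cells with all 3 genes, Epcam, Pax2, Emx2 and Wnt7a were each detected in 7 and Mki67 in 6. The median depth of these 7 cells was 56 and their median Gapdh Ct 10.8, against a median Gapdh Ct of 13.4 over all 96 cells. The part of template in this overlap was not tested. The 3-gene set was chosen after its values were seen.

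Prom1 and Lgr5 also varied together in level. Over the 15 cells with both, their raw Ct had a rho of 0.91 (r = 0.86), and after Gapdh was subtracted from each the rho was 0.71 (r = 0.83, and 0.74 without the 2 cells farthest from the median). Ezh2, a Polycomb methyltransferase gene, was the assay closest to Prom1 by this measure, with a rho of 0.75 over 29 cells (r = 0.69 with and without 2 cells). The median over 75 assays was 0.25. Closest to Aldh1a1 were Anpep, an aminopeptidase gene (rho = 0.88 over 10 cells, r = 0.82, and 0.89 without 2 cells), and Hprt, a purine salvage gene (rho = 0.87 over 12 cells, r = 0.59 and 0.52), where the median over 45 assays was 0.38. Both values of a pair subtract the same Gapdh Ct, which by itself raises such a rho, and these are the highest of many. In raw Ct the rho was 0.73 for Ezh2 with Prom1. With Aldh1a1 it was 0.59 for Anpep and 0.80 for Hprt.

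Hopx cells often carried Wnt7a and seldom Mki67, by counts given with their intervals. Wnt7a was in 32 of 36 Hopx cells (88.9%, interval 73.9 to 96.9%), against 20 of 60 cells without Hopx (33.3%, interval 21.7 to 46.7%), with a depth-averaged difference of 48.5 points. It was in 7 of 8, 9 of 12 and 16 of 16 Hopx cells of the 3 depth classes, against 5 of 26, 6 of 20 and 9 of 14 of the others. Cd55, a complement regulator gene, was in 32 of 36 (88.9%), against 29 of 60 (48.3%), and the histone assay h2b in 23 (63.9%), against 21 (35.0%). Of the 70 assays, 12.9% were at least 20 points higher with Hopx and 5.71% at least 20 points lower.

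Mki67 was in 7 of 36 Hopx cells (19.4%, interval 8.19 to 36.0%), against 22 of 60 cells without Hopx (36.7%, interval 24.6 to 50.1%). By depth class it was in 0 of 8, 2 of 12 and 5 of 16, against 4 of 26, 8 of 20 and 10 of 14, with an averaged difference of -27.0 points. With a Ct limit of 24 or 26 this difference was -11.4 or -7.48, and without depth classes -17.2. Dpp4, a surface peptidase gene, had the lowest difference, at 5 of 36 (13.9%), against 25 of 60 (41.7%), and Mst1r, a receptor tyrosine kinase gene, was in 7 of 36 (19.4%), against 19 of 60 (31.7%). The difference of Mst1r was -22.1 points, and -11.9 in cells with all 3 reference genes. Of the 7 cells with both Hopx and Mki67, 6 also had Prom1.

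Prom1 divided the Hopx cells, a division that was not among the planned comparisons. Of the 20 cells with both Hopx and Prom1, 15 had Pax2, 12 had Sox9, 6 had Lgr5 and 6 had Mki67. Of the 16 with Hopx and no Prom1, 7 had Pax2, 3 had Sox9, 1 had Lgr5 and 1 had Mki67. Wnt7a was found in 19 of the 20 and in 13 of the 16. The cells with both genes were also deeper, with a median of 57.5 other assays against 49, and the part of depth in these counts was not tested. Of the 18 cells with Prom1 and no Hopx (median depth 54), 14 had Pax2, 9 had Sox9, 9 had Lgr5 and 9 had Mki67. These genes were thus also frequent in Prom1 cells that lacked Hopx.

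The 3 other stem and progenitor genes with the highest difference for Hopx were Itga6, Cd9 and Cd44, all surface adhesion genes. Itga6, an integrin gene, was in 33 of 36 Hopx cells (91.7%), against 35 of 60 (58.3%), Cd9 in 35 (97.2%), against 42 (70.0%), and Cd44 in 34 (94.4%), against 43 (71.7%). Of the 16 listed genes, 12 had a higher depth-averaged share with Hopx and 4 a lower one, with a median of 9.00 points. Over all 90 assays 58 were higher and 31 lower with Hopx, so most assays lay in that direction. For the other markers the counts over the 16 genes were 10 and 6 for Prom1, 8 and 8 for Aldh1a1, 8 and 8 for Lrig1 and 6 and 10 for Abcg2, beside 47 and 42, 42 and 47, 58 and 31, and 39 and 50 over all assays.

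**Figure D5:**
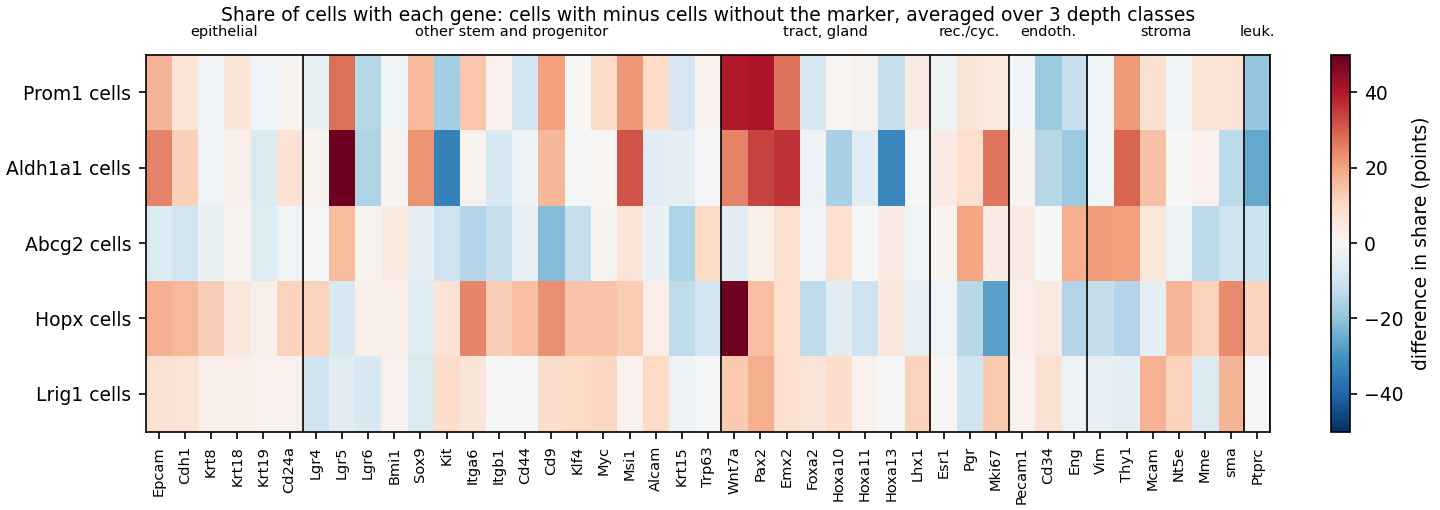
Difference in the share of cells with each listed gene (columns), in percentage points averaged over 3 depth classes, for cells with minus cells without each marker (rows). Columns are grouped into epithelial, other stem and progenitor, tract and gland, receptor and cycling (rec./cyc.), endothelial (endoth.), stromal and leukocyte (leuk.) genes; red is a higher share with the marker. Lgr5 with Aldh1a1 (48.8) and Wnt7a with Hopx (48.5) are the darkest red fields, and Kit with Aldh1a1 (-33.7) is the darkest blue.

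The genes most in favour of Abcg2 were Tbx3, Thy1 and Cd200. Tbx3, the T-box gene, was in 10 of 26 Abcg2 cells (38.5%, interval 20.2 to 59.4%), against 12 of 70 cells without Abcg2 (17.1%, interval 9.18 to 28.0%), and Thy1, a surface gene of stromal cells, in 8 (30.8%), against 9 (12.9%). Cd200, an immune checkpoint ligand gene, was in 23 (88.5%), against 47 (67.1%). The depth-averaged differences were 22.8, 20.4 and 19.8 points. Lowest were Cd55, in 12 of 26 (46.2%), against 49 of 70 (70.0%), the tetraspanin gene Cd9, in 17 (65.4%), against 60 (85.7%), and Gja1, a gap junction gene, in 13 (50.0%), against 49 (70.0%). Several of these differences depended on the setting. That of Thy1 was 8.87 points with a Ct limit of 24, and that of Tbx3 14.6 without the 10% of cells with the most genes. Cd9, at -21.5 points, was -9.17 in cells with Epcam, and Cd55, at -22.5, was -14.2 in cells with all 3 reference genes (Gapdh, actin and Hprt). Of the 70 assays 2.86% of the 70 assays were at least 20 points higher with Abcg2 and 2.86% were at least 20 points lower.

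Vim, the intermediate filament gene of mesenchymal cells, was detected in 7 cells in all, and 6 of these had Abcg2. That is 6 of 26 Abcg2 cells (23.1%, interval 8.97 to 43.6%), against 1 of 70 cells without Abcg2 (1.43%, interval 0.0362 to 7.70%). Eng, which encodes the co-receptor endoglin of endothelium and some stroma, was in 7 of 26 (26.9%), against 6 of 70 (8.57%). Of the 10 listed markers of endothelium, stroma and leukocytes, Abcg2 cells detected a median of 5.5 (range 1 to 9), and the other cells a median of 5 (range 0 to 8). Their summed level, taken as 28 minus Ct over the 10 genes, ran from 10.5 to 81.1 in Abcg2 cells and from 0 to 75.6 in the others. Its median was lower in Abcg2 cells, at 45.1 against 48.3. Of the 6 stromal genes, 3 had a higher depth-averaged share with Abcg2 and 3 a lower one. The part of other cell types in the Abcg2 share was not tested.

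Epcam separated the Abcg2 cells into dissimilar parts, a division made after the values were seen. It separated the cells without Abcg2 in the same direction. Of the 18 Abcg2 cells with Epcam, 12 had Wnt7a, 11 had Pax2 and 8 had Lgr5, while 2 had Eng. Of the 8 Abcg2 cells without Epcam, none had Wnt7a, Pax2 or Lgr5, whereas 5 had Eng and 5 had Tbx3. Thy1 went the other way, in 1 of these 8 cells and 7 of the 18 with Epcam. Vim was in 3 of the 8 and 3 of the 18. The 14 cells with neither Epcam nor Abcg2 had Wnt7a in 2, Pax2 and Lgr5 in none, Eng in 4 and Tbx3 in 5. The 56 cells with Epcam and no Abcg2 had Wnt7a in 38, Pax2 in 32, Lgr5 in 12, Eng in 2 and Tbx3 in 7. The division thus went with Epcam whether or not Abcg2 was detected. Krt18 was found in 7 of the 8 Abcg2 cells without Epcam.

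Thy1 was also found more often with Prom1, in 12 of 38 cells (31.6%), against 5 of 58 (8.62%), and with Aldh1a1, in 6 of 14 (42.9%), against 11 of 82 (13.4%). Its depth-averaged differences there, 21.2 and 29.0 points, were no smaller than the 20.4 with Abcg2. Of the 6 stromal genes, 4 were higher and 2 lower with each of Prom1 and Aldh1a1, and 3 were higher and 3 lower with each of Hopx and Lrig1. For Vim and Eng the depth-averaged difference was below 0 with each of these 4 markers. Vim was in 0 of 36 Hopx cells, 1 of 24 Lrig1 cells, 1 of 14 Aldh1a1 cells and 2 of 38 Prom1 cells. Eng was in 0 of 14 Aldh1a1 cells, 2 of 36 Hopx cells, 3 of 24 Lrig1 cells and 3 of 38 Prom1 cells. Pecam1, an endothelial adhesion gene, was in nearly every cell with or without a marker, and so did not separate them. The median number of the 10 other-type markers was 6 with Prom1, Hopx or Lrig1 and 5 with Aldh1a1, against 5 without each marker. Their summed level ran from 10.6 to 75.6 in Prom1 cells, from 24.2 to 75.6 in Aldh1a1 cells, from 28.5 to 75.6 in Hopx cells and from 26.6 to 81.1 in Lrig1 cells, against 0 to 81.1 without Prom1, Aldh1a1 or Hopx in turn and 0 to 72.0 without Lrig1. The median summed level was 49.1 with Prom1 against 44.0 without it, and 47.2 against 46.5 for Aldh1a1. For Hopx it was 50.6 against 43.9, and for Lrig1 55.5 against 44.3. The part of other cell types in these shares was not tested.

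After averaging over depth, none of the 70 assays (0%) was 20 points higher or lower with Lrig1. Without depth classes 7 of them (10%) were at least 20 points higher with Lrig1 and the median over all 90 assays was 9.72 points, against 2.27 with them. Pax2 was highest, in 16 of 24 Lrig1 cells (66.7%, interval 44.7 to 84.4%), against 27 of 72 cells without Lrig1 (37.5%, interval 26.4 to 49.7%), a depth-averaged difference of 18.2 points, in place of 29.2 without depth classes. Mcam, a stromal and vascular adhesion gene, was in 7 of 24 (29.2%), against 8 of 72 (11.1%), and the actin assay sma in 21 (87.5%), against 49 (68.1%). The difference of sma was 16.9 points, and 11.0 in cells with Epcam. Of the 7 Lrig1 cells with Mcam, 6 were in the deepest class, and the difference was -0.89 points without the 10% of cells with the most genes. Among the lowest were Fut4, in 8 of 24 (33.3%), against 27 of 72 (37.5%), and Pgr, the progesterone receptor gene, in 14 (58.3%), against 41 (56.9%). The difference of Pgr was -10.1 points within depth classes, 1.39 without them and 4.92 with a Ct limit of 24, so its direction comes from the averaging over depth. That of Fut4 was -11.7 points, with -23.8 to -3.71 under the alternatives run.

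The depth-averaged difference of Mki67 was negative with Hopx and positive with the other markers. For each marker the intervals of Mki67 with and without it overlap, and with Abcg2 the shares were nearly equal. Mki67 was in 11 of 24 Lrig1 cells (45.8%), against 18 of 72 without Lrig1 (25.0%), with a depth-averaged difference of 13.1 points. It was in 15 of 38 Prom1 cells (39.5%), against 14 of 58 (24.1%), a depth-averaged difference of 4.75 points in place of 15.3, and in 8 of 26 Abcg2 cells (30.8%), against 21 of 70 (30.0%), with 3.78 points. No test between markers was made, and 12 cells carry both Hopx and Lrig1.

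Levels of the remaining markers were closest to the following genes. For Hopx it was Nt5e, an ectonucleotidase gene, with a rho of 0.47 over 36 cells after Gapdh was subtracted (r = 0.60, and 0.38 without 2 cells), then the prion protein gene Prnp, at 0.39 over 35 cells (r = 0.36 and 0.47). For Abcg2 they were Ncam1, a neural adhesion gene, at 0.83 over 10 cells (r = 0.70 and 0.82) and Wnt5a, a WNT ligand, at 0.80 over 12 cells (r = 0.72 and 0.75). For Lrig1 they were h2b, at 0.75 over 11 cells (r = 0.45 and 0.70), and Mst1r, at 0.66 over 10 cells (r = 0.54 and 0.62). The medians over the assays with at least 10 shared cells were 0.04 for Hopx, 0.23 for Abcg2 and 0.07 for Lrig1. In raw Ct the rho was lower for Ncam1 (0.54), Wnt5a (0.59) and Mst1r (0.35). It was higher for Nt5e (0.69), Prnp (0.49) and h2b (0.79).

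Cells with any of the 5 markers carried Wnt7a, Pax2 and Lgr5 more often than cells with none, while Sox9 and Mki67 were closer. Wnt7a, Pax2 and Lgr5 were among the highest genes named above for single markers in these same cells. Their counts here are therefore not a separate result. Wnt7a was in 46 of 70 cells with at least 1 marker (65.7%), against 6 of 26 with none (23.1%), and Pax2 in 38 (54.3%), against 5 (19.2%). Lgr5 was in 18 of 70 (25.7%), against 2 of 26 (7.69%). Sox9 was in 27 of 70 (38.6%), against 11 of 26 (42.3%), and Mki67 in 22 (31.4%), against 7 (26.9%). Among epithelial genes, Epcam was in 58 of 70 (82.9%), against 16 of 26 (61.5%), and Krt18 in 69 (98.6%), against 22 (84.6%). Cdh1 was in 64 (91.4%), against 21 (80.8%), and Krt19 in 68 (97.1%), against 25 (96.2%). None of these shares was averaged over depth, and the part of Epcam in them was not tested. Of the 26 cells without a marker, 5 were low-Gapdh cells, and their median depth was 45 other assays.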

How the data were processed

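Single CD326-positive cells were lysed, preamplified by 1-step reverse transcription and PCR, and measured by quantitative PCR with the dye EvaGreen on a Fluidigm Biomark chip, per the labels' protocols. Primers, baseline and threshold: not given in the sources used here. Deposited scores are raw Ct values, per the file headers, with 40 where no Ct was recorded (4320 of 9216). A second table, of ratios, holds the authors' folds relative to Gapdh and to cell 1, per the file headers. These folds were recomputed from the Ct table to within 6.55e-06 on the log2 scale, and cell 1 has a Gapdh Ct of 20.5 and none of the markers.

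Prom1, Abcg2, Hopx, Lrig1 and Aldh1a1 were matched by symbol or by a synonym (cd133, aldh1) in RefSeq names of assembly GRCm38.p6. The short name aldh1 does not exclude related aldehyde dehydrogenases. Detection was a Ct below 28. Depth was the number of the other 91 assays detected. A compared gene other than a marker was itself among these 91. Within a depth class, higher shares of some genes therefore tend to go with lower shares of others. Differences in share were averaged over 3 depth classes with Mantel-Haenszel weights, a step tested on simulated data. The genes named for each marker are the 3 highest and 3 lowest by this difference among assays in 10% to 90% of cells, the 2 closest in Ct minus Gapdh Ct, and members of lists of markers. The members, lists and the threshold of 20 points were chosen with earlier results of these data known. Values of some assays are not reported. Correlations are descriptions over cells. No cells were removed as doublets. Computation used scipy 1.17.1, pandas 2.3.3, numpy 2.4.6 and matplotlib 3.10.9 under Python 3.11.15.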

Additional observations from a re-analysis of the deposited data

How the results depend on the processing

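The alternatives were Ct limits of 24 and 26, any recorded Ct, the 63 cells with Gapdh, actin and Hprt, the 74 with Epcam, leaving out the lowest or highest 10% of cells by detected genes, the low-Gapdh cells or cell 67, and depth classes or none. Of 63 values of the marker shares, 58 stayed within the counting interval. In the cells with all 3 reference genes Prom1 was at 52.4%, Hopx at 49.2%, at least 1 marker at 82.5% and at least 2 at 60.3%, and with a Ct limit of 24 Lrig1 was at 16.7%. Of 100 differences between pairs of markers, 94 moved by less than the counting error of the difference and 5 changed sign, in pairs whose difference was -2.78 to 3.74 points. Prom1 with Abcg2 was -3.19 points in the cells with all reference genes, and Hopx with Aldh1a1 was 1.11 with a limit of 24 and 7.50 with any recorded Ct. Abcg2 with Lrig1 was 1.32 with all reference genes and 3.32 without the highest 10%. Of 300 differences of named genes, chosen as alternatives after the data were seen, 295 did so too and 4 changed sign. Ptprc with Prom1 was 1.91 without depth classes, Mcam with Lrig1 was -0.89 without the highest 10% of cells, and Pgr with Lrig1 was 4.92 with a limit of 24 and 1.39 without depth classes. All 25 alternative values of the SD of Ct stayed within its 95% interval. The causes of these changes were not tested. Shares of a marker found in 14 to 38 cells carry wide intervals, which limits every comparison above, and the number of animals is not known. No paired analysis was possible because all cells form 1 group.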

Other observations

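The lowest 2 values of Aldh1a1 stood well below the rest. Cell 71 had an Aldh1a1 Ct of 13.4 and a Prom1 Ct of 15.7, and it also carried Hopx (19.8) and Lrig1 (21.4). Cell 95 had an Aldh1a1 Ct of 13.9, a Prom1 Ct of 14.0, which was the lowest of all 38 Prom1 cells, and an Abcg2 Ct of 17.2, without Hopx or Lrig1. Their Gapdh Ct were 10.3 and 11.1, and they detected 66 and 56 of the other assays. The next lowest Aldh1a1 value was 17.2, in cell 23, which is 1 of the 4 cells with 4 markers. The other 3 of those are cells 8, 71 and 80, and Prom1 and Hopx were found in all 4.

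The 4 cells with Prom1, Aldh1a1 and Abcg2 but neither Hopx nor Lrig1 all had Epcam, Cdh1 and Thy1. Of these, 3 had Lgr5, 3 had Pax2 and 1 had Kit.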
